A study of Mus musculus with 6 samples.

Results

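The immunoglobulin constant region genes were followed in whole prostate tumours of castrated mice: the heavy chain genes Ighm, Igha, Ighg1, Ighg2b, Ighg2c and Ighg3, the light chain genes Igkc, Iglc1 and Iglc2, and Jchain, whose protein joins units of IgM and IgA. They were chosen by symbol, 10 of 21718 genes in the count table, although earlier results of these data were known at that time. All recipients were Ptenpc-/- mice, which form prostate tumours. They were irradiated with 900 rad and given bone marrow at 6 weeks of age and castrated at 8 weeks, and their tumours were taken 16 weeks after castration. The marrow donors were F10fl/fl mice without Cre (3 F10-intact samples, numbered 1, 3 and 4) or F10fl/fl; LysM-Cre+ mice (3 F10-deleted samples, also numbered 1, 3 and 4). F10 encodes coagulation factor X, and LysM-Cre acts from the Lyz2 locus in macrophages, monocytes and neutrophils, so B cells and plasma cells were not its intended targets. The Cre line behind Ptenpc-/-, the mouse strain and any pooling of animals are not stated in the labels, and plasma cells of an irradiated host can persist beside donor-derived ones. Whether every tumour came from a different animal is not stated in the labels. The p-values therefore reflect only how these samples spread. The comparison asks whether tumour immunoglobulin RNA differed with the F10 genotype of the marrow.

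An antibody is built from heavy and light chains, and each chain joins a variable segment, which binds antigen, to a constant region, which sets its class. A B cell first makes IgM and can then switch its heavy chain to IgG or IgA, while its light chain stays either kappa or lambda. Plasma cells, which descend from B cells, secrete antibody and hold most immunoglobulin RNA of a tissue. In glands such as the prostate, IgA and IgM held together by J chain are carried across the epithelium by the receptor Pigr.

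The heavy chain genes lie on chromosome 12, minus strand, GRCm38: Ighm (ENSMUSG00000076617) at 113418558 to 113422730, Ighg3 (ENSMUSG00000076615) at 113356224 to 113361232, Ighg1 (ENSMUSG00000076614) at 113325240 to 113330523, Ighg2b (ENSMUSG00000076613) at 113302965 to 113307933, Ighg2c (ENSMUSG00000076612) at 113285325 to 113288932 and Igha (ENSMUSG00000095079) at 113254830 to 113260236. Igkc (ENSMUSG00000076609) lies on chromosome 6, plus strand, at 70726435 to 70726966. Iglc1 (ENSMUSG00000105906) and Iglc2 (ENSMUSG00000076937) lie on chromosome 16, minus strand, at 19061618 to 19062071 and at 19198396 to 19200351, and Jchain (ENSMUSG00000067149) on chromosome 5, minus strand, at 88519809 to 88527891. GENCODE M21 annotates 9 of them as constant gene segments and Jchain as protein coding. Counts per gene cover all exons, so secreted and membrane forms of a heavy chain were not separated.

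The constant regions resemble each other, which bears on how reads are assigned, so the closest pairs are shown. The lambda constants are given from the start of the constant exon over 120 bases, the read length, 5′ to 3′ on the minus strand of chromosome 16 (GENCODE M21 transcripts), with capitals where Iglc1 or Iglc3 differs from Iglc2.
Iglc2 (chr16:19198733-19198852): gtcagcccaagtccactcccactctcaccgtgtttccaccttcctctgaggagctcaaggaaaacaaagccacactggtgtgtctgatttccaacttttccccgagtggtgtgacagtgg
Iglc3 (chr16:19065562-19065681): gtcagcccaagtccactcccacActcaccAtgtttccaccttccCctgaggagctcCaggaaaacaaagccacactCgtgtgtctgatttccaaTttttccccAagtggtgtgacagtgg
Iglc1 (chr16:19061952-19062071): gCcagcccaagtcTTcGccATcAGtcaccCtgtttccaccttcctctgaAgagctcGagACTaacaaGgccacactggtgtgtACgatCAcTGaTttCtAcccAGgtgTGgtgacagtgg
Iglc3 differed from Iglc2 at 7 of 120 bases and Iglc1 at 28. Over whole transcripts, 0 of the 492 windows of 120 bases in Iglc2 were present in another annotated gene. However, 209 windows (42.5%) lay within 5 mismatches of a window of another gene among these 10 and Iglc3, the nearest being Iglc3, so the split between Iglc2 and Iglc3 is uncertain.

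Among the IgG subclasses, Ighg2b and Ighg2c were the closest, and their first constant exons are shown because the 2 genes were high in different samples. Capitals mark where Ighg2c differs from Ighg2b, on the minus strand of chromosome 12.
Ighg2b (chr12:113307814-113307933): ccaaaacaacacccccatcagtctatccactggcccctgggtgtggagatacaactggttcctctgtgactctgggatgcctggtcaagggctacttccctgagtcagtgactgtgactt
Ighg2c (chr12:113288813-113288932): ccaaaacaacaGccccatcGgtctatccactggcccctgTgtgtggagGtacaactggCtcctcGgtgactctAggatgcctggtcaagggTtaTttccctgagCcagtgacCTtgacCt
The stretches differed at 13 of 120 bases. Of the windows of 120 bases, 10.2% in Ighg2b and 21.7% in Ighg2c lay within 5 mismatches of another member, against 1.33% in Ighg1, 1.96% in Ighg3 and 0 in Ighm, Igha, Igkc, Iglc1 and Jchain. Some mouse strains carry an IgG2a allele in place of Ighg2c, and its effect on these counts was not tested.

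Immunoglobulin RNA was scarce and varied widely within both marrow groups. Totals ranged from 9237308 to 11821588 counts per sample, and the 9 constant genes without Jchain took 677 to 2990 of them, or 0.00592% to 0.0284%. Their summed level was 177, 113 and 310 CPM (counts relative to the library total, scaled by the trimmed mean of M-values, TMM) in F10-intact samples 1, 3 and 4. It was 129, 131 and 57.6 CPM in F10-deleted samples 1, 3 and 4. F10-intact sample 4 was the highest and F10-deleted sample 4 the lowest, and the groups overlapped because F10-intact sample 3 lay below F10-deleted samples 1 and 3. On the log2 scale the F10-deleted mean minus the F10-intact mean was -0.89 (7.52 ± 0.727 in F10-intact and 6.63 ± 0.677 in F10-deleted samples, SD, n = 3 each). The exact two-sided permutation p was 0.3, where 3 against 3 samples cannot go below 0.1, and 0.9 adjusted over 5 such comparisons. In bulk RNA, fewer cells of a type and less RNA per cell cannot be told apart.

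Per kilobase of annotated exon, Igkc was the most abundant of the 10 genes and Ighg1 the least. The means over 6 samples were 80.0 ± 51.4 for Igkc, 34.7 ± 18.1 for Ighm, 13.4 ± 13.9 for Iglc2, 10.1 ± 7.53 for Igha, 6.81 ± 5.30 for Iglc1 and 5.59 ± 3.34 CPM per kilobase for Jchain (SD). Ighg2b, Ighg2c and Ighg3 had means of 1.02, 0.930 and 0.918 and Ighg1 0.152 CPM per kilobase. By this length Igkc was the highest and Ighm the next in each of the 6 samples. The order depends on the length, because in CPM Ighm was above Igkc in each of the 6 samples. The means of Iglc2, Igha, Iglc1 and Jchain differed from their neighbours by less than an SD and these genes changed places between samples, as did Ighg2b, Ighg2c and Ighg3.

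**Figure D1:**
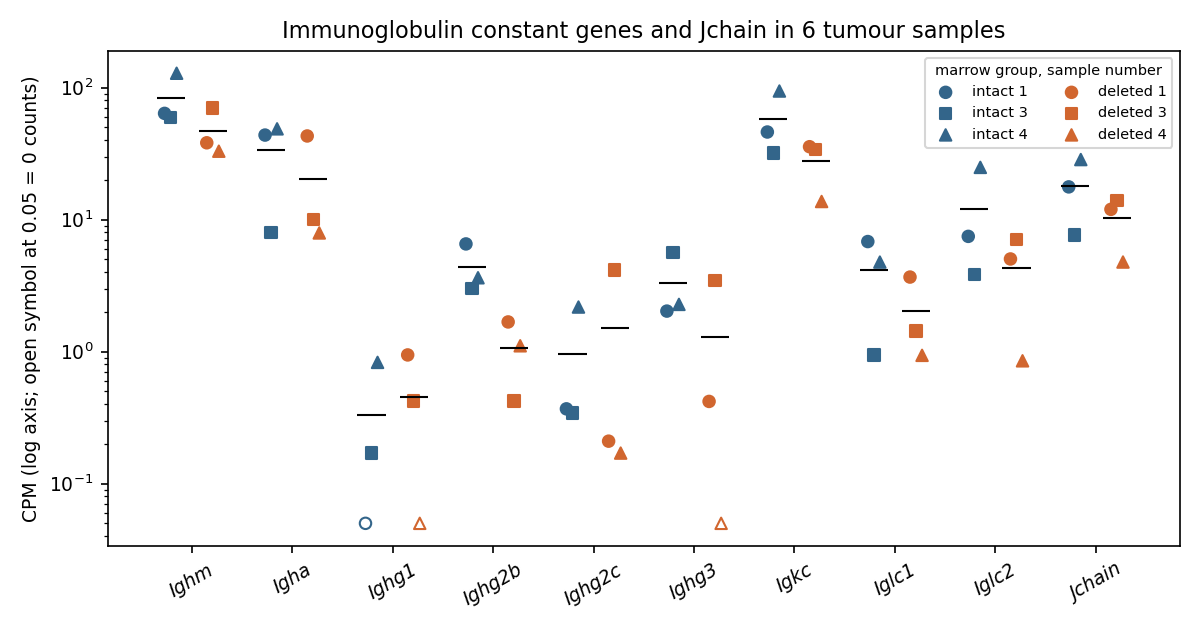
Level of each of the 10 genes in CPM (log axis) in the 3 F10-intact (blue) and 3 F10-deleted (orange) samples, with group means as bars. The marker shape gives the sample number and open symbols at the bottom stand for 0 counts. Ighg2b is the gene whose groups do not overlap, with 2.995 CPM as the lowest F10-intact and 1.68 CPM as the highest F10-deleted value.

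With edgeR's quasi-likelihood test over 15963 genes, 0 of the 10 passed an adjusted p of 0.05, where 0.0439% of all genes did. A total of 8 members passed the filter on low counts, and Ighg1 and Ighg2c did not. All 8 had a log2 fold change (F10-deleted over F10-intact) below 0, with a median of -1.05, where 52.7% of all genes tested were below 0 and their median was -0.02. Ighg1 and Ighg2c, with few counts, were above 0 in an edgeR fit without a filter (0.457 and 0.695). The members share their samples and are not independent of each other. At an unadjusted p under 0.05, 1 of the 8 was lower by edgeR and 0 higher, where 10.9% of all genes passed, 4.74% lower and 6.15% higher. DESeq2 called 1 of the 8 (3.02% of all genes), limma-voom 0 (0.0125%) and edgeR with the replicate number as a block 0 (0.0125%). The gene DESeq2 called was Ighg2b.

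Ighm, the first class a B cell makes, was counted 692, 694 and 1239 times in F10-intact samples 1, 3 and 4 and 364, 830 and 387 times in F10-deleted samples 1, 3 and 4. That is 63.7, 59.4 and 128 CPM against 38.2, 70.1 and 32.9 CPM, so F10-deleted sample 3 lay above F10-intact samples 1 and 3. The edgeR log2 fold change was -0.83 ± 0.39 (SE, adjusted p = 0.509). Without F10-intact sample 4 it was -0.39, and without F10-deleted sample 3 it was -1.20. Ighd, the class that naive B cells display beside IgM, had 15, 46 and 39 counts against 19, 42 and 26. Per kilobase its level was 0.0215 to 0.0667 times that of Ighm.

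Igha, the heavy chain of the mucosal class, was high in 3 samples and low in 3, and these did not follow the marrow groups. It stood at 43.7, 7.96 and 48.7 CPM in F10-intact samples 1, 3 and 4, and at 43.0, 10.1 and 7.92 CPM in F10-deleted samples 1, 3 and 4. The 3 high values came from both samples numbered 1 and F10-intact sample 4. In the edgeR fit Igha was at -0.72 ± 0.86 (log2 fold change, SE, adjusted p = 0.826), with a 95% interval from -2.80 to 1.35. It ranged from -1.86 without F10-deleted sample 1 to -0.34 without F10-deleted sample 4 (-0.36 and -0.45 when F10-intact samples 4 and 1 were left out, -0.37 for F10-deleted sample 3 and -1.19 for F10-intact sample 3).

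Ighg2b, an IgG subclass, was lower in every F10-deleted sample than in any F10-intact sample. It had 71, 35 and 35 counts in F10-intact samples 1, 3 and 4 and 16, 5 and 13 in F10-deleted samples 1, 3 and 4, or 4.39 ± 1.89 against 1.07 ± 0.628 CPM (SD, n = 3 each). Groups of 7.68% of all genes tested were separated in this direction. The log2 fold change was -2.05 ± 0.55 (SE, 95% interval -3.31 to -0.78), with an unadjusted p of 0.00597 and an edgeR adjusted p of 0.234. Only the DESeq2 alternative put it past the threshold (adjusted p = 0.0379 at -2.05), and over the other alternatives the adjusted p ranged from 0.165 with the replicate block to 0.549 without F10-deleted sample 3. The log2 fold change was below 0 in each of the 15 alternatives, between -2.47 and -1.61.

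The other IgG subclasses rested on few counts, and each was high in different samples. Ighg3 had 22, 66 and 22 counts in F10-intact samples 1, 3 and 4 and 4, 41 and 0 in F10-deleted samples 1, 3 and 4, where 0 counts allow up to 0.255 CPM. Its edgeR log2 fold change of -1.33 ± 1.12 (SE, adjusted p = 0.734) became -4.00 when F10-deleted sample 3 was left out, -0.71 when F10-intact sample 3 was, and -0.75 when F10-deleted sample 4 was. It was -2.00 with the replicate block and -2.90 by limma-voom. Ighg2c had 4, 4 and 21 counts against 2, 49 and 2. Most of its F10-deleted reads thus came from sample 3. Ighg1 had 0, 2 and 8 counts against 9, 5 and 0. Of these 3 genes, Ighg1 and Ighg2c were below the filter. An edgeR fit without a filter put them at 0.457 and 0.695 (log2 fold change, adjusted p of 0.955 and 0.923).

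Among the light chains, Igkc and Iglc2 were highest in F10-intact sample 4 and Iglc1 in F10-intact sample 1. Igkc, the kappa constant region, had 500, 373 and 909 counts in F10-intact samples 1, 3 and 4 and 340, 404 and 161 in F10-deleted samples 1, 3 and 4. In CPM these were 46.0, 31.9 and 94.1 against 35.6, 34.1 and 13.7, so F10-intact sample 3 lay inside the F10-deleted range. In the edgeR fit Igkc was at -1.04 ± 0.49 (log2 fold change, SE, adjusted p = 0.505), and -0.49 without F10-intact sample 4. Iglc1 had 74, 11 and 46 counts against 35, 17 and 11, at -1.06 ± 0.76 (SE, edgeR adjusted p = 0.674), which was -0.47 with F10-intact sample 1 left out and -1.77 with F10-deleted sample 1 left out. Iglc2 had 81, 45 and 240 counts against 48, 84 and 10, at -1.47 ± 0.87 (SE, edgeR adjusted p = 0.607). It was at -0.39 without F10-intact sample 4 and at -2.02 without F10-deleted sample 3. Iglc3, the near copy of Iglc2 that is not among the 10 genes, had 38, 39 and 30 counts against 6, 29 and 16 (log2 fold change -1.14, edgeR adjusted p = 0.44).

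Jchain had 192, 89 and 275 counts in F10-intact samples 1, 3 and 4 and 114, 165 and 56 in F10-deleted samples 1, 3 and 4. In the edgeR fit Jchain was at -0.81 ± 0.54 (log2 fold change, SE, adjusted p = 0.65), and at -0.31 without F10-intact sample 4. With F10-deleted sample 4 left out it was -0.47, and with F10-intact sample 3 left out it was -1.18. It followed the light chains closely, at 23.9% to 40.8% of the Igkc count in all 6 samples.

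**Figure D2:**
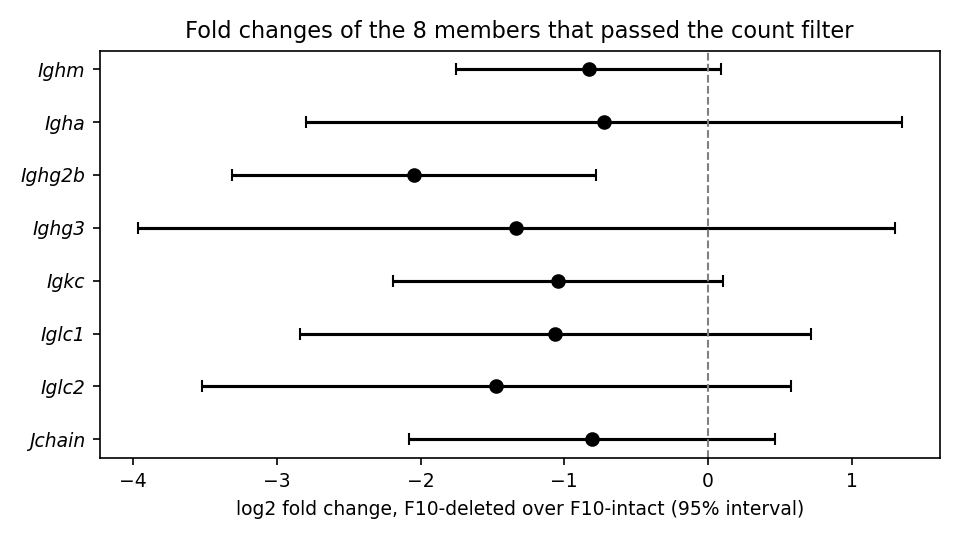
Log2 fold change of the 8 genes that passed the filter (x axis, F10-deleted over F10-intact), points with 95% intervals from the edgeR fit, dashed line at 0. All 8 points lie below 0 and 7 of the 8 intervals cross it, the exception being Ighg2b (-3.31 to -0.78).

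By full exon length, IgM made up most of the heavy chain RNA in each sample, and the IgA share varied more between samples than between marrow groups. Shares were taken from counts per kilobase of exon, and intervals are 95% Wilson intervals that cover counting error only. In F10-intact samples 1, 3 and 4 the IgM share was 63.0%, 82.5% and 75.2%, and in F10-deleted samples 1, 3 and 4 it was 53.7%, 81.2% and 83.3%. The IgA share was 30.5% (28.1 to 33.0), 7.82% (6.41 to 9.51) and 20.2% (18.5 to 21.9) in the F10-intact samples. In the F10-deleted samples it was 42.8% (39.4 to 46.2), 8.23% (6.90 to 9.79) and 14.2% (11.6 to 17.1). Both samples numbered 1 thus had the highest IgA shares of their groups, and both samples numbered 3 the lowest. The group means were 19.5 ± 11.4% and 21.7 ± 18.5% (SD, n = 3 each), a difference of 2.23 percentage points (exact permutation test, two-sided, p = 0.8). For IgM the difference was -0.803 points (exact permutation p = 0.9).

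By full exon length, IgG was the smallest class in all but the samples numbered 3. Its share was 6.57%, 9.67% and 4.66% in F10-intact samples 1, 3 and 4 and 3.49%, 10.5% and 2.58% in F10-deleted samples 1, 3 and 4, and in the samples numbered 3 it exceeded the IgA share. The group difference was -1.43 points (6.97 ± 2.53% and 5.54 ± 4.35%, SD, n = 3 each, exact permutation p = 0.6). All 5 comparisons of single values had an adjusted p of 0.9. The annotated exons of Igha span 2668 bases and its shortest transcript 1100. With the length of the shortest transcript of each gene the IgA share became 43.9%, 13.1% and 32.0% in F10-intact and 57.8%, 14.3% and 23.7% in F10-deleted samples. IgA then exceeded IgM (37.8%) in F10-deleted sample 1, as it did by raw counts (50.9% against 45.2%), and IgM was 47.2% in F10-intact sample 1. In F10-deleted sample 3 IgG became the smallest class (12.1%), also by raw counts (9.53% against 11.3% for IgA). The order of the classes in these samples thus depends on the length used.

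The IgG subclass mix was different in each sample. Ighg2b led IgG in F10-intact sample 1 (69.3% of IgG per kilobase) and in F10-deleted samples 1 (47.6%) and 4 (76.3%, from 15 IgG counts). Ighg3 led in F10-intact sample 3 (60.9%). Ighg2c led in F10-intact sample 4 (38.9%) and F10-deleted sample 3 (64.8%), where Ighg2b was 3.27%. In F10-intact sample 4 the lead of Ighg2c depends on the length used. By raw counts Ighg2b led there, with 35 counts against 22 for Ighg3 and 21 for Ighg2c. The annotated exons of Ighg2c span 1326 bases, against 2678 for Ighg2b and 2512 for Ighg3. IgG counts were 97, 107 and 86 in the F10-intact and 31, 100 and 15 in the F10-deleted samples, so the lower Ighg2b of F10-deleted sample 3 occurred beside an IgG total like that of the F10-intact samples.

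**Figure D3:**
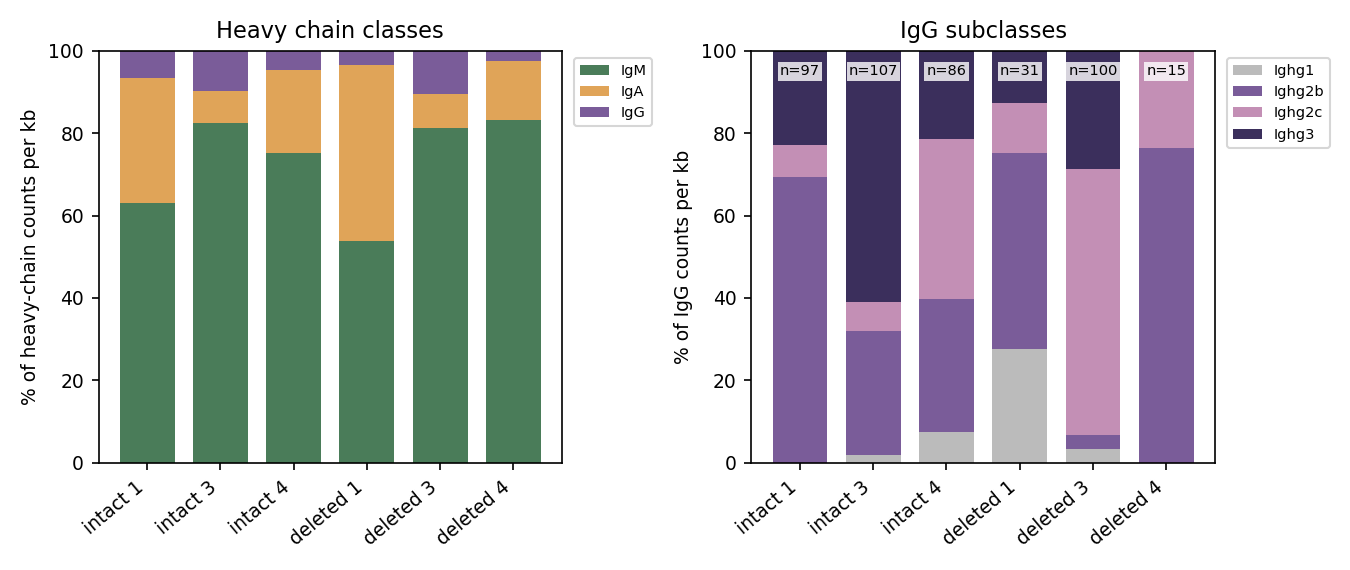
Stacked bars per sample of the heavy chain classes as % of heavy chain counts per kilobase (left) and of the IgG subclasses as % of IgG counts per kilobase (right, with the number of IgG counts). By full exon length, IgA ranges from 7.82% to 42.8%, and the leading IgG subclass changes between samples.

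Kappa exceeded lambda in all 6 samples. The ratio of Igkc to Iglc1 plus Iglc2, per kilobase, was 3.18 (95% counting interval 2.66 to 3.81), 7.17 (5.42 to 9.49) and 3.46 (3.03 to 3.95) in F10-intact samples 1, 3 and 4. It was 4.11 (3.23 to 5.22), 4.35 (3.50 to 5.40) and 7.46 (4.75 to 11.7) in F10-deleted samples 1, 3 and 4. F10-intact sample 3 and F10-deleted sample 4 were the highest and the groups overlapped. On the log2 scale the difference was 0.25 (2.10 ± 0.645 in F10-intact and 2.35 ± 0.475 in F10-deleted samples, SD, n = 3 each, exact two-sided permutation p = 0.5). With Iglc3 added to lambda, the ratio ran from 2.48 to 3.98 over the 6 samples. By full exon length, light chain RNA was 1.39 to 2.52 times heavy chain RNA per kilobase. This ratio depends on the length used, because the shortest transcript is shorter than the full exon length for the heavy chain genes but not for Igkc. It was not computed with the shortest transcripts.

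Within lambda, the constant genes followed the variable segments. Iglv2 is the segment usually joined to Iglc2, and Iglv1 the one joined to Iglc1 or Iglc3. The ratio of Iglv2 to Iglv1 counts was 0.552, 1.00 and 9.63 in F10-intact samples 1, 3 and 4 and 0.733, 1.11 and 0.143 in F10-deleted samples 1, 3 and 4. The ratio of Iglc2 to Iglc1 per kilobase was 0.812, 3.04 and 3.87 against 1.02, 3.67 and 0.674, in the same order. F10-intact sample 4 had 77 of the Iglv2 counts and 240 of the Iglc2 counts, the most of any sample. The segment ratios rest on few counts elsewhere. Iglv2 over Iglv1 was 5 over 5 in F10-intact sample 3, 20 over 18 in F10-deleted sample 3 and 1 over 7 in F10-deleted sample 4. The order of samples with similar ratios is thus uncertain. Over the 6 samples Pearson's r of the log2 ratios was 0.781 (exact permutation p = 0.00972, adjusted 0.013) and Spearman's rho 1.00 (p = 0.00278, adjusted 0.00556). Without F10-intact sample 4 and F10-deleted sample 4, the farthest from the median, r was 0.965.

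A total of 4 such relations were computed, chosen after the data were seen. Jchain followed the summed light chains (r = 0.966, exact permutation p = 0.00556, adjusted 0.013; rho = 0.943, p = 0.0167, adjusted 0.0222), with r = 0.893 without the same samples. Igha followed them in rank (rho = 1.00, exact permutation p = 0.00278, adjusted 0.00556; r = 0.754, p = 0.00694, adjusted 0.013), with r = 0.772 without these samples. For Ighm, r was 0.872 (exact permutation p = 0.0375, adjusted 0.0375) and rho 0.714 (p = 0.136, adjusted 0.136), and r fell to 0.116 without them, so that relation rests on those samples. Each sample number holds 1 sample per group, too few for a value within a number.

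**Figure D4:**
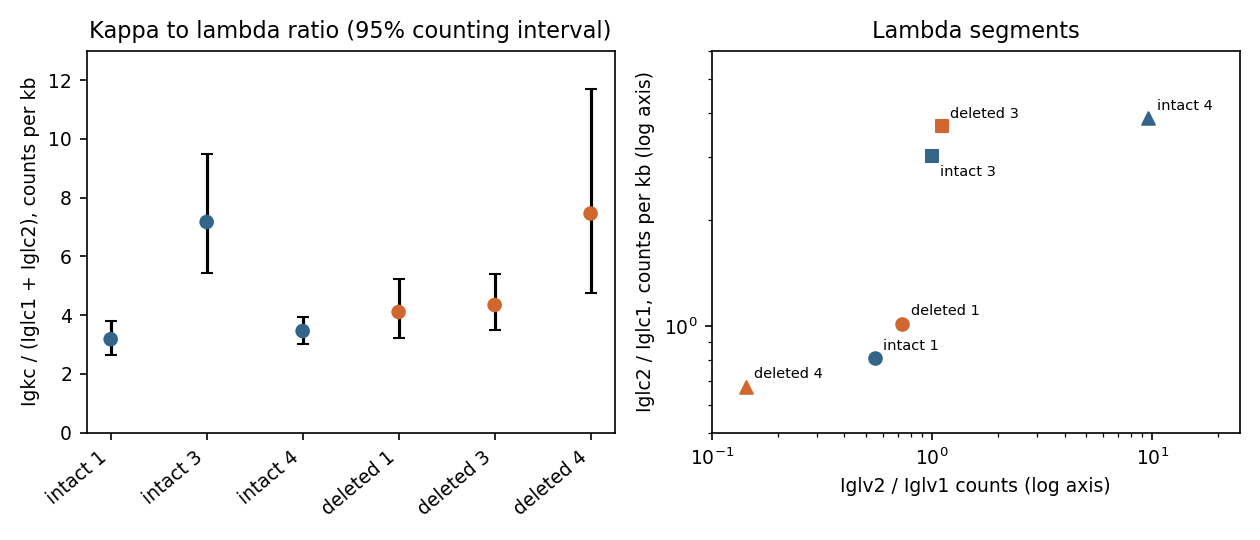
Left, kappa to lambda ratio per sample (counts per kilobase, 95% counting interval). Right, Iglc2 over Iglc1 per kilobase against Iglv2 over Iglv1 counts, both on log axes, F10-intact in blue and F10-deleted in orange. The right panel orders the samples alike on both axes, from F10-deleted sample 4 (0.143 and 0.674) to F10-intact sample 4 (9.63 and 3.87).

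Variable segments were measured apart from the constant genes, and the leading heavy and kappa segments mostly differed between samples, while the lambda segments Iglv1 and Iglv2 had counts in all 6. The table held 66 of 348 annotated variable segments (22 Ighv, 41 Igkv and 3 Iglv), and the others were not analysed here. Segment counts totalled 209, 83 and 233 in F10-intact samples 1, 3 and 4 and 113, 125 and 40 in F10-deleted samples 1, 3 and 4. F10-intact sample 1 was led by Igkv6-13, with 80 of 123 Igkv counts (65.0%, Wilson interval 56.3 to 72.9), and by Ighv1-78, with 25 of 38 Ighv counts. In the other 5 samples Igkv6-13 had at most 1 count. F10-intact sample 4 was led by Iglv2, with 77 of 85 Iglv counts (90.6%, 82.5 to 95.2), and by Igkv2-112 (32 counts) and Igkv3-2 (23 counts). F10-deleted sample 1 was led by Igkv6-15, with 28 of 69 Igkv counts (40.6%, 29.8 to 52.4).

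In the remaining samples the leading segments had 20 counts or fewer. F10-intact sample 3 was led by Igkv9-120 (15 counts) and Igkv12-44 (12 counts), F10-deleted sample 3 by Iglv2 (20), Iglv1 (18) and Igkv1-117 (14), and F10-deleted sample 4 by Iglv1 (7), Igkv1-117 (5) and Igkv8-27 (4). The effective number of Igkv segments (the inverse Simpson index, equal to the number of segments if all were used alike) was 2.29, 8.28 and 7.16 in F10-intact samples 1, 3 and 4 and 5.22, 10.01 and 6.87 in F10-deleted samples 1, 3 and 4. These samples held between 23 and 123 Igkv counts, which limits the index in F10-deleted sample 4. Of 18 segments with at least 10 counts in all, 9 had over 75% of them in 1 sample, and 3 segments had a count in all 6 samples. Assembled chains were not analysed here, so these counts do not show how many cell clones used a segment.

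The leading kappa segments of the samples numbered 1 are close relatives, and their first bases after the leader intron are shown for that reason (minus strand of chromosome 6, capitals where Igkv6-15 differs).
Igkv6-13 (chr6:70457679-70457798): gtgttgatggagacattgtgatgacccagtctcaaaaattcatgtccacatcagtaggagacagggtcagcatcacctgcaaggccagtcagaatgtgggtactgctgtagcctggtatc
Igkv6-15 (chr6:70406647-70406766): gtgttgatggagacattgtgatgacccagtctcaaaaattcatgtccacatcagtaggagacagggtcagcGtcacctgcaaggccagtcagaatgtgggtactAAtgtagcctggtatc
They differed at 3 of 120 bases. Igkv6-15 had 0 counts in F10-intact sample 1, where Igkv6-13 had 80, and Igkv6-13 had 1 count in F10-deleted sample 1, where Igkv6-15 had 28.

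**Figure D5:**
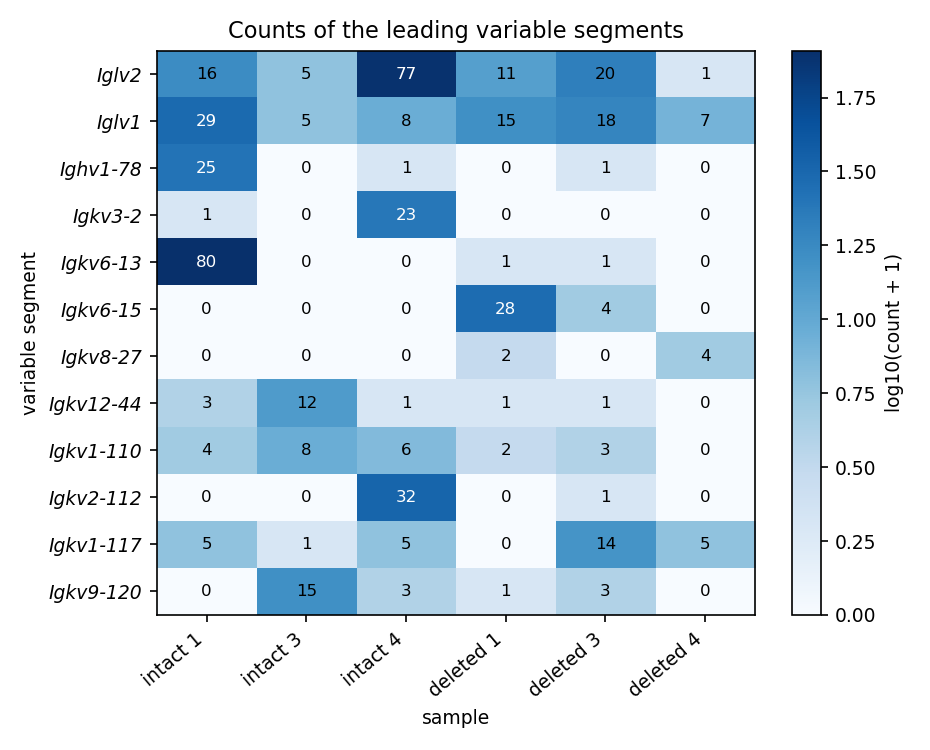
Counts of the variable segments that were among the 3 leading ones in any sample (rows) in the 6 samples (columns), shaded by log10(count + 1). Igkv6-13 has 80 counts in F10-intact sample 1 and at most 1 elsewhere, while Iglv1 is spread over the samples with 5 to 29 counts.

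Some defining B cell genes were sparse beside the summed immunoglobulins, but the B cell and plasma cell lists as a whole were not. The B cell list summed to 242.6 to 366 CPM and the plasma cell list to 1524 to 1816 CPM, against 62.39 to 338 CPM for the 10 members. The B cell sum was above that of the members in every sample except F10-intact sample 4 (269 against 338 CPM). The adaptor gene Blnk had the most counts of the B cell list in each sample (964 to 1591). Of the defining B cell genes, Ms4a1, which encodes CD20, had 14 to 43 counts per sample, Cd79a, a signalling chain of the B cell receptor, 16 to 39, and Pax5, the B lineage regulator, 17 to 32. Of 16 tested genes in the B cell list, 11 had a log2 fold change below 0 and 5 above (median -0.25), where 52.7% of all genes tested were below 0. In edgeR's test 0 passed, and 2 of 16 had an unadjusted p under 0.05, near the 10.9% of all genes. The smallest p-values belonged to Fcrla, an Fc receptor-like protein of B cells (20, 23 and 16 counts against 11, 4 and 4, log2 fold change -1.60, edgeR adjusted p = 0.333), and to Blnk, a B cell adaptor (-0.34, adjusted p = 0.363), followed by Cd37 (-0.38) and Ms4a1 (-0.62). The complement receptor Cr2, also on that list, had 15 to 1179 counts and did not follow the other B cell genes.

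Of 17 tested plasma cell genes, 13 were below 0 and 4 above, with a median of -0.37, where 52.7% of all genes were below 0. In edgeR's test 0 passed, and 5 of 17 had an unadjusted p under 0.05, where 10.9% of all genes did. Those with the smallest p were genes of protein secretion or its control: Creld2 at -0.71, Edem1 at -0.45, Sec11c at -0.59 and Ell2, an elongation factor, at -0.37 (edgeR adjusted p from 0.161 to 0.319). The prostate epithelium also secretes protein and expresses several genes on this list, among them Sdc1 (947 to 5129 counts) and Xbp1 (2626 to 4361 counts). Other genes of the list ranged widely in level. Derl3, a protein of endoplasmic reticulum degradation, had 250, 132 and 67 counts in F10-intact samples 1, 3 and 4 against 84, 50 and 32 in F10-deleted samples 1, 3 and 4 (log2 fold change -1.40, edgeR adjusted p = 0.426). Fkbp11 had 75 to 261 counts, Slamf7 62 to 103 and Prdm1, a plasma cell regulator, 19 to 88. Mzb1, an endoplasmic reticulum protein of B and plasma cells, had 1 to 5 counts per sample, Pou2af1, a B cell co-activator, 4 to 25, and Irf4, another plasma cell regulator, 15 to 30, while Tnfrsf17 was not analysed here.

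Among the genes of IgA transport and homing, Pigr, the receptor that carries IgA and IgM through epithelium, was very abundant, at 6066 ± 3578 CPM in F10-intact and 3560 ± 407 CPM in F10-deleted samples (SD, n = 3 each). Its log2 fold change was -0.77 (edgeR adjusted p = 0.582). Its counts of 28347, 68168 and 94241 in F10-intact samples 1, 3 and 4 did not follow Igha, which was high in sample 1 and low in sample 3. Ccl28, a chemokine that draws IgA plasma cells, had 44, 324 and 507 counts against 231, 183 and 161 (-0.66, adjusted p = 0.819), Ccl20 was at -0.43 and the integrin Itgb7 at -0.31. In all, 5 of 6 tested genes of this list were below 0 and 0 passed, where 52.7% of all genes tested were below 0.

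Factors that support B cells or direct switching were above 0 in 5 of 5 tested, with a median of 0.15, where 52.7% of all genes tested were below 0. Of these factors 0 passed edgeR's test (lowest adjusted p = 0.719, 0 at an unadjusted p under 0.05). Tnfsf13b, which encodes BAFF, was at 0.15, Tnfsf13, which encodes APRIL, at 0.15, Tgfb1, a switch factor for IgA, at 0.27 and Aldh1a2, which makes retinoic acid, at 0.53. Only 5 of the 10 factors in the count table passed the filter. Below it, Il6, Il10 and Il5 had at most 4 counts in a sample. Counts in samples 1, 3 and 4 were 4, 6 and 3 (F10-intact) against 1, 1 and 3 (F10-deleted) for Cd40lg. For Ifng they were 5, 2 and 3 against 3, 2 and 9. Of 12 germinal centre and switch genes, 7 were above 0 and 5 below (median 0.07, 0 passed, 2 at an unadjusted p under 0.05). Of all genes tested 10.9% had an unadjusted p under 0.05 by edgeR. Rgs13 was at 1.42, Bcl6 at 0.52, Msh6 at 0.34 and Fas at -0.32 (edgeR adjusted p from 0.411 to 0.528). Of 9 Fc receptor genes 4 were above 0 and 5 below (median -0.06, 0 passed), including Trim21 at 0.20, Fcamr at -0.67, Fcgr4 at 0.37 and Fcer1g at -0.19.

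Summed levels of skeletal muscle and adipocyte markers did not overlap between the marrow groups, and those of the other lists below did. The plasma cell list above was also separated, at 1718 to 1816 CPM in F10-intact and 1524 to 1564 CPM in F10-deleted samples. So was the germinal centre list, at 250.5 to 265.7 CPM in F10-intact and 277.7 to 293 CPM in F10-deleted samples. The summed skeletal muscle list was 13.04 to 119 CPM in F10-intact and 822 to 2008 CPM in F10-deleted samples. The groups did not overlap for 10 of its 10 genes, where 16.7% of all genes were separated in either direction. Of these 10 genes 0 passed edgeR's test (lowest adjusted p = 0.0846). The adipocyte list was 12.1 to 44.5 against 127 to 263 CPM, and 1 of 7 tested genes passed, Fabp4, a fatty acid binding protein (edgeR adjusted p = 0.00741). The endothelial list was 23.6 to 47.8 against 46.2 to 63.8 CPM (0 of 6 passed) and the fibroblast list 1235 to 1459 against 1404 to 1486 CPM (0 of 6 passed). On the fibroblast list the collagen genes Col1a1, Col1a2 and Col3a1 were higher in every F10-deleted sample than in any F10-intact sample (edgeR adjusted p from 0.0846 to 0.138). The T cell list was 102 to 106 against 73.7 to 134 CPM, the myeloid list 741 to 1069 against 775 to 909 CPM and the luminal epithelial list 7333 to 8071 against 6579 to 7415 CPM, with 0 genes passing. On the list of lymphoid tissue genes, Cxcl13, a chemokine for B cells, had 381 to 1241 counts, Ccl21a, a chemokine for T cells, 185 to 398, and Ltb, a lymphotoxin chain, 90 to 128, while Ccl19 had 0 to 5 and Glycam1 0 to 13, and 0 of 7 tested genes passed. The part of these cell types in the immunoglobulin values was not tested.

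Many genes had a profile like that of the immunoglobulins over so few samples. Of 15623 genes outside the immunoglobulin loci with a mean of at least 1 CPM, 238 (1.52%) had a Pearson r of at least 0.9 with the summed immunoglobulin level over the 6 samples, and 270 (1.73%) with Igha. The closest to the sum were Gm42690 (r = 0.996), Suds3 (0.994), Brat1 (0.993), Stxbp2 (0.988), Gm14966 and Arid1b (both 0.987), and Jchain stood at 0.971. The closest to Igha were Vegfb (0.996), Cnih2, Ciapin1, Kmt5c and Pafah1b3 (0.989 each) and Gm26944 (0.988), and Jchain stood at 0.78. These are descriptions of likeness with no test.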

How the data were processed

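The authors deposited raw counts of reads per Ensembl gene for 6 poly-A RNA libraries, read single-end at 120 bases per the labels' protocols. STAR 2.7.10a, GRCm38 and DESeq2 (no role given) are named in the submitters' processing notes. For the counting program, its strand setting and its handling of reads that match several genes, the sources used here give nothing. Symbols, coordinates and exon lengths came from GENCODE M21, which named 21605 of 21718 identifiers. Igkc overlaps the lincRNA Gm30211 on its own strand, which had 0 to 4 counts.

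Group differences were tested with edgeR 4.0.16 (quasi-likelihood, robust, TMM scaling, filterByExpr at a minimum count of 10) in R 4.3.3 over 15963 genes, with Benjamini-Hochberg adjustment and a threshold of 0.05. Shares, ratios and sums were compared with exact two-sided permutation tests over samples. The members and lists were chosen with earlier results of these data known. Named genes were the 10 members, up to 4 list members with the smallest p in 6 lists, the 3 leading variable segments per sample and the 6 most similar genes; other genes named were chosen after their values were seen.

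The deviations of same-numbered samples from the mean of their group were correlated over genes (0.372, 0.14 and 0.186 for numbers 1, 3 and 4), so the numbers may pair the samples, although the labels name no shared source. The main fit and the permutation tests ignore the numbers, and the replicate block is an alternative. Same-group samples differed beyond sampling noise, with a chi-square per degree of freedom of 22.3 to 77.5. Alternatives were other scalings, filters and tools (DESeq2 1.42.0, limma-voom in limma 3.58.1), the replicate block, other lengths and gene sets, and leaving out each sample. Tested on data simulated for this comparison over 15963 genes, edgeR recovered 39 of 100 genes changed 2-fold and 87 of 100 changed 4-fold. The share of calls that were false there was 3.08% for edgeR, 10.1% for DESeq2 and 0.806% for limma-voom. The simulation gave each gene the typical spread of genes at its level and not its own spread. Among the members, Igha and Ighg3 had SE of 0.86 and 1.12 on the log2 scale. Recovery of such variable genes was not simulated and may be lower.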

Additional observations from a re-analysis of the deposited data

How the results depend on the processing

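For the 8 tested members the direction was the same in all 15 alternatives, and 0 members passed except with DESeq2, which called 1 (Ighg2b). With the replicate block 0 passed (lowest edgeR adjusted p = 0.165), and leaving out each sample gave 0 throughout. Without F10-intact sample 3, 5 of 9 tested members had an unadjusted p under 0.05 by edgeR (lowest adjusted p = 0.4). The share of all genes under 0.05 in that fit was not computed, so this count cannot be read as particular to the members. With the replicate block the log2 level of summed immunoglobulin differed by -0.89 (exact sign-flip p = 0.5, smallest possible 0.25), and with 1 sample left out by -1.24 to -0.499. The IgM share difference of -0.803 points changed sign with raw counts (0.359) and with the shortest transcript length (0.94, added after seeing the data), and ranged from -6.10 to 8.71 with 1 sample left out. That range was -8.30 to 8.98 for IgA, -3.93 to 0.0458 for IgG and -0.022 to 0.622 (log2) for kappa to lambda, which was -0.371 from Igkv over Iglv counts. The cause of these changes was not tested. Members with few counts (Ighg1, Ighg2c, Ighg3) and the 40 to 233 segment counts per sample limit what could be detected.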
